A study of Mus musculus with 6 samples.

Results

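Complement is a set of plasma and cell surface proteins in which recognition molecules switch on a chain of proteases that end in the cleavage of C4, C3 and factor B. Much of the plasma pool is secreted by hepatocytes, but fibroblasts and other stromal cells also make complement components, and interferons and interleukin signals are known to raise several of them in such cells. The genes described here are 9 members of this cascade that stromal cells can make: *C1ra* and *C1s1* (proteases of the classical pathway), *Masp1* and *Masp2* (proteases of the lectin pathway), *C4b*, *C3* and *Cfb* (the components that are cut), and *Serping1* and *Cd55* (inhibitors). The rule that chose them lists them by name and uses no measured value, but earlier results of these data were known by then. All 9 are among the 49548 genes of the count table, and 8 of them are among the 15789 genes with enough counts to be tested, *Cfb* being the exception.

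The levels come from poly(A)-selected, directional RNA-seq of native CFs, the cardiac fibroblasts of mouse hearts, in 3 WT and 3 CharmeKO libraries. CharmeKO mice carry a PolyA signal inserted into *Charme*, the gene of a long noncoding RNA of muscle, and WT mice carry the intact gene. All mice were on the C57BL/6J background and aged 5 weeks, no treatment is given for either group, and the insertion is a change of the locus that is not limited to fibroblasts. The methods describe the cells as the hearts' dissociated non-cardiomyocyte fraction after red blood cell lysis and magnetic depletion of hematopoietic cells, whereas the labels also list a growth medium on coated plates.

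Reads counted on genes numbered from 9595701, in WT replicate 3, to 42101393, in WT replicate 1. *Charme* itself had 26, 15 and 4 counts in WT replicates 1, 2 and 3 and 7, 0 and 0 in CharmeKO, a log2 fold change of −2.66 (SE 1.14) that did not pass the test (edgeR, adjusted p = 0.362). The 12 fibroblast markers were all detected, with a summed level of 40897 to 43589 CPM (counts divided by the TMM-normalized size of their library) in WT and 33959 to 42331 CPM in CharmeKO. The 12 leukocyte markers summed to 35.3 to 62.0 CPM in WT and 46.2 to 61.9 CPM in CharmeKO. Endothelial markers (8 genes) summed to 5694 to 6953 CPM in WT and 5860 to 7090 CPM in CharmeKO. The 5 erythroid markers summed to 26758 to 39184 CPM in WT and 24397 to 31723 CPM in CharmeKO. All 5 had a log2 fold change below 0, and 0 passed the test (edgeR). The libraries thus hold RNA of more than fibroblasts, including much of red blood cells. In such bulk samples, a change in the number of cells of one type and a change in the RNA per cell cannot be told apart. The libraries also fall into kinds by sex-linked transcripts. *Xist* had 9196 to 16783 counts and 4 Y-linked genes 0 to 136 in WT replicate 1 and CharmeKO replicates 1 and 2, while *Xist* had 0 to 67 counts and the Y-linked genes 886 to 2967 in WT replicates 2 and 3 and CharmeKO replicate 3.

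The stretch before the start site is where factors that answer interferon and cytokine signals bind, and it is shown for 3 members that differ in level or response. The sequences are the 250 bases upstream of the RefSeq start site on GRCm38.p6, read 5′ to 3′ on the strand of the gene. They lie at chr17:57228137-57228386 (minus strand) for *C3*, chr6:124512371-124512620 (plus strand) for *C1ra* and chr4:148602294-148602543 (plus strand) for *Masp2*. Capitals mark matches, on either strand, to TTGCNNAA (C/EBP-like), TTCNNNGAA (STAT-like), TATAAA (the TATA box), the IRF-like motif (GAAA, 2 free bases and GAAA) and the NF-kB-like motif (GGGA, 4 free bases and CC).
C3: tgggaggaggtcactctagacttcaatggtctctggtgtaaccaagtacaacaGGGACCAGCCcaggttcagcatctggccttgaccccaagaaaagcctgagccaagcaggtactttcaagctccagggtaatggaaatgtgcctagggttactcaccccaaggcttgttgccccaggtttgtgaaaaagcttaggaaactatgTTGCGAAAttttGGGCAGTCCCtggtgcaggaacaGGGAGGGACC
C1ra: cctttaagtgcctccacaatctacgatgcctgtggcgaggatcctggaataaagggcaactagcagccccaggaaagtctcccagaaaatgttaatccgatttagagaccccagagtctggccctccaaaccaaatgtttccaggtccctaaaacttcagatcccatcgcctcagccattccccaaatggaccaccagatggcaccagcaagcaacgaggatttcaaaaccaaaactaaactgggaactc
Masp2: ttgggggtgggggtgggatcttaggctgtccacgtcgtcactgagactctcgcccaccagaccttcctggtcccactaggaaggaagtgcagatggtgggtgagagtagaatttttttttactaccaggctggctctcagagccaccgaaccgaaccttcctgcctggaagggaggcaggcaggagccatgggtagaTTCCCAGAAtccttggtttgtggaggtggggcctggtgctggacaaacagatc
The *C3* window held TTGCNNAA at positions −45 to −38 and the NF-kB-like motif at 3 places, at −197 to −188, −33 to −24 and −10 to −1, with position −1 the last base before the start. The *Masp2* window held TTCNNNGAA at −53 to −45, and the *C1ra* window held no match. Among 27025 promoter windows of the same length, 9.55% held TTGCNNAA, 17.3% the NF-kB-like motif, 7.18% TTCNNNGAA, 3.04% the IRF-like motif and 13.0% TATAAA. RefSeq windows were matched for 5 of the 9 genes, the others being *C1s1*, with TTGCNNAA at −242 to −235, and *Cd55*, with the NF-kB-like motif at −61 to −52. At another listed start site of *C1s1*, the window held the NF-kB-like motif at −35 to −26. *C4b*, *Cfb*, *Serping1* and *Masp1* had no entry in the table used.

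Native CFs held high levels of the inhibitor of the first proteases, of *C3* and of the classical pathway proteases, and very low levels of the lectin pathway proteases. Per kb of exon, the mean level over the 6 libraries was 425 ± 69.2 CPM (SD, n = 6) for *Serping1*, 116 ± 29.7 for *C3*, 44.6 ± 7.15 for *C1s1*, 38.6 ± 8.28 for *C1ra*, 20.3 ± 3.56 for *Cd55*, 4.12 ± 1.87 for *C4b*, 0.354 ± 0.368 for *Masp2* and 0.0904 ± 0.0680 for *Masp1*. Without the division by length, *Serping1* ranked 107th and *C3* 207th among the 15789 tested genes. From *Serping1* down to *C4b*, each gene was above the next in this order in 6 of 6 libraries. The ranges of *C1s1* and *C1ra* overlapped across libraries, since the lowest *C1s1* level was 34.3 and the highest *C1ra* level 48.0 CPM per kb. *C1ra* also shares more of its 75-base stretches with a close copy, 40.1% against 14.7% for *C1s1*, so their order in level is uncertain. *Masp2* and *Masp1* had no fixed order, with *Masp2* above *Masp1* in 0 of 3 WT and 3 of 3 CharmeKO libraries.

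**Figure D1:**
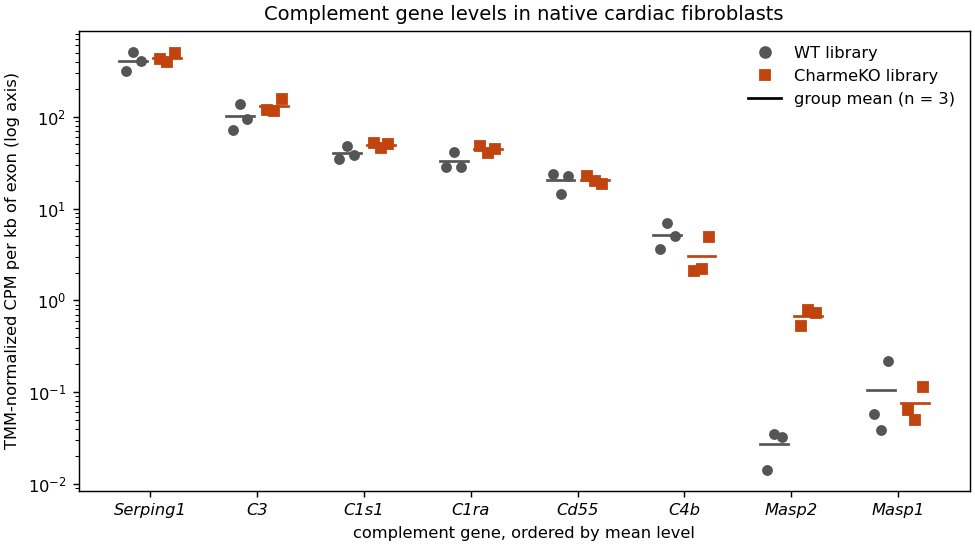
TMM-normalized CPM per kb of exon (log axis) of the 8 tested complement genes in each WT (grey circles) and CharmeKO (orange squares) library, with group means (n = 3) as lines. *Serping1* lies at or above 317 CPM per kb in each library, *Masp1* at or below 0.219, and *Masp2* is the gene whose groups lie apart.

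CharmeKO was then compared with WT for each gene in edgeR (quasi-likelihood test), and p-values were adjusted by the Benjamini-Hochberg method over all tested genes, with a threshold of 0.05. Of the 8 tested complement genes 1, *Masp2*, passed the threshold, against 0.83% of all tested genes (131 of 15789), of which 66 rose (0.418%) and 65 fell (0.412%). DESeq2, which called 2.5% of the same genes, also called *Masp2* alone among the 8. *Masp2* was also the 1 gene of the 8 whose CharmeKO and WT libraries did not overlap, which held for 18.2% of all tested genes. An unadjusted p under 0.05 (edgeR) was found for 3 of the 8, beside 12.8% of all tested genes. The log2 fold change was above 0 in 6 of the 8, with a median of 0.20, while it was above 0 in 51.2% of all tested genes, with a median of 0.01.

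The proteases of the classical pathway are C1r, which cuts and activates C1s, and C1s, which cuts C4 and C2. *C1ra* was at 85.3, 124 and 84.2 CPM in WT replicates 1, 2 and 3 and at 143, 121 and 133 CPM in CharmeKO. WT replicate 2 reached the CharmeKO values, and the other WT libraries lay below them. This gave a log2 fold change of 0.43 (SE 0.16, 95% interval 0.09 to 0.77), which did not pass the test (edgeR, adjusted p = 0.283). Without WT replicate 2 the log2 fold change was 0.64 and passed (edgeR, adjusted p = 0.0162), and it also passed at 0.44 without a gene filter (adjusted p = 0.0460). *C1s1* likewise had WT replicate 2 within the CharmeKO range and the other WT libraries below it, at 107, 149 and 119 CPM in WT and 164, 141 and 158 CPM in CharmeKO. Its log2 fold change was 0.30 (SE 0.14, 95% interval −0.0024 to 0.61; edgeR, adjusted p = 0.397). The level of *C1ra* relative to *C1s1* within a library, on the log2 scale, was −0.33, −0.27 and −0.49 in WT and −0.19, −0.22 and −0.25 in CharmeKO. These values did not overlap between the groups, although they differed by only 0.14 on average. The ratio has no test, and the groups did not overlap for 18.2% of single tested genes either. Both genes have close copies, and a read that fits a gene and its copy is lost from each, so both genes may be undercounted. *C1rb* had 0 counts in 5 libraries and 1 in CharmeKO replicate 2, and shares 40.1% of the 75-base stretches of the *C1ra* transcript, while *C1s2* had at most 5 counts and shares 14.7% of those of *C1s1*.

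MASP-1 and MASP-2 are the proteases carried by mannose-binding lectin, ficolins and collectins, and MASP-2 cuts C4 and C2 as C1s does. *Masp2* had 2, 3 and 1 counts in WT replicates 1, 2 and 3 and 50, 63 and 74 counts in CharmeKO. The normalized levels were 0.0470, 0.114 and 0.108 CPM in WT and 1.75, 2.58 and 2.43 CPM in CharmeKO. Each CharmeKO library lay far above each WT library, and yet the CharmeKO levels remained low, since the gene's mean placed it 12926th of the 15789 tested genes. The log2 fold change was 4.73 (SE 0.60, 95% interval 3.41 to 6.05; edgeR, adjusted p = 0.00222), the 12th largest among the 66 genes that rose. Because the WT counts are so few, the ratio of the pooled counts, 187 in CharmeKO to 6 in WT, is better read with its interval, 29.2 scaled to the library sizes (95% exact conditional interval 13.2 to 80.5, counting error only). The gene passed in 13 of the 13 alternatives in which it could be tested, including each library left out in turn. It was not tested under a filter of 10 counts in 5 libraries, because that removes a gene low in 3.

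*Masp1* was also near the lower limit of detection, and its groups overlapped. It had 24, 10 and 20 counts in WT and 18, 12 and 34 in CharmeKO, or 0.564, 0.380 and 2.15 CPM against 0.628, 0.491 and 1.12 CPM. WT replicate 3, the shallowest library, held the highest level. Its log2 fold change was −0.33 (SE 0.74, 95% interval −1.94 to 1.29; edgeR, adjusted p = 0.892), and without WT replicate 3 it turned to 0.65. At these counts a change within that interval was not detectable.

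The position of *Masp2* bears on how its reads are counted. On the opposite strand of chromosome 4 the gene *Tardbp*, which encodes the RNA-binding protein TDP-43, shares 1817 of the 3307 exon bases of *Masp2*, or 54.9%. *Tardbp* had 4144, 1692 and 914 counts in WT and 2737, 2459 and 2541 in CharmeKO, with a log2 fold change of 0.11 (edgeR, adjusted p = 0.833). Libraries were directional and the counts used strand, so that *Tardbp* reads are assigned to *Tardbp* where the strand was kept. Among the 10 protein-coding genes on each side of *Masp2*, a stretch looked at after its values were known, 17 were tested. Of the 17, 2 passed, beside 0.83% of all tested genes. Of the 2, *Ube4b*, which encodes a ubiquitin ligase, fell from 108 to 74.7 CPM (log2 fold change −0.52; edgeR, adjusted p = 0.039). The 17 tested neighbours ranged from −3.10 for *Fbxo44* to 1.16 for *Angptl7*, neither of which passed (edgeR, adjusted p = 0.202 and 0.186). The genes directly beside *Masp2*, *Srm* and *Tardbp*, did not pass the test. The order of genes beyond this stretch was not looked at.

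**Figure D2:**
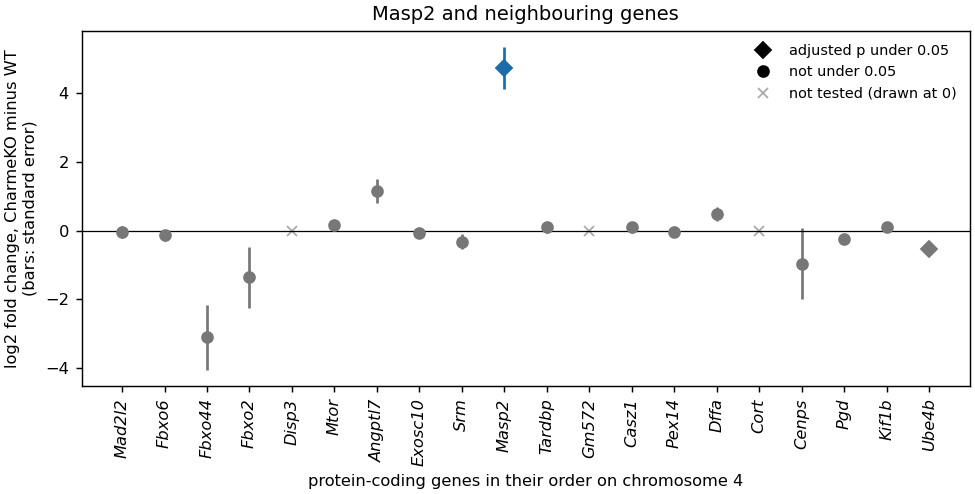
Log2 fold change (CharmeKO minus WT, bars: standard error) of *Masp2* (blue) and of protein-coding genes on each side, in their order on chromosome 4, with 1 neighbour not shown. Diamonds mark adjusted p under 0.05 and crosses genes that were not tested. *Masp2*, at 4.73, stands above its 17 tested neighbours, of which the highest is *Angptl7* at 1.16.

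C4 and C3 are the components that the proteases cut and that bind covalently to target surfaces, and factor B joins C3b to form the convertase of the alternative pathway. *C4b* measured 20.5, 39.4 and 28.4 CPM in WT replicates 1 to 3 and 11.8, 12.4 and 28.2 CPM in the CharmeKO libraries. CharmeKO replicates 1 and 2 lay below each WT library and CharmeKO replicate 3 lay within the WT range. The log2 fold change was −0.75 (SE 0.32, 95% interval −1.45 to −0.04; edgeR, adjusted p = 0.364), and it did not pass with any library left out. It was −0.46 without WT replicate 2 (adjusted p = 0.555) and −1.28 without CharmeKO replicate 3 (adjusted p = 0.0515). The levels also followed the sex-linked transcripts. The 3 libraries rich in Y-linked reads held 39.4, 28.4 and 28.2 CPM of *C4b* and the 3 rich in *Xist* held 20.5, 11.8 and 12.4 CPM, without overlap, which held for 13.7% of all tested genes. Among the 8 complement genes, *C4b* was the 1 gene with this separation. Within the libraries rich in *Xist*, *C4b* was at 20.5 CPM in the WT library and at a mean of 12.1 CPM in the 2 CharmeKO libraries. Within those rich in Y-linked reads, it was at a mean of 33.9 CPM in the 2 WT libraries and at 28.2 CPM in the CharmeKO library. With the split as a term in the fit, the log2 fold change was −0.52 (edgeR, adjusted p = 0.294). Without a gene filter, *C4b* passed at a log2 fold change of −0.74 with a smaller standard error, 0.16 (edgeR, adjusted p = 0.000275).

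*C4a*, a near copy of *C4b*, averaged 1.89 ± 0.876 CPM in the WT libraries (SD, n = 3) and 0.894 ± 0.356 CPM in the CharmeKO libraries (log2 fold change −1.07; edgeR, adjusted p = 0.421). The transcripts are 96.0% identical and share 23.5% of the 75-base stretches of *C4b*, so that the split of reads between them is uncertain, and a read that fits both is lost from each.

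*C3* measured 371, 710 and 490.1 CPM in WT replicates 1 to 3 and 602, 593 and 801 CPM in the CharmeKO libraries. The groups overlapped, because WT replicate 2 exceeded CharmeKO replicates 1 and 2. For *C3* the log2 fold change was 0.35 (SE 0.22, 95% interval −0.13 to 0.82; edgeR, adjusted p = 0.543). It rested on single libraries, at 0.15 without WT replicate 1, 0.19 without CharmeKO replicate 3 and 0.63 without WT replicate 2, and none of these passed (adjusted p = 0.794, 0.758 and 0.0908). *C4b* and *C3* thus had fold changes of opposite sign, and their ratio within each library separated the groups. On the log2 scale, *C4b* to *C3* was −4.18, −4.17 and −4.11 in WT and −5.67, −5.58 and −4.83 in CharmeKO. The WT values lay within 0.1 of each other, and each CharmeKO library lay below them, by a mean difference of −1.21. This ratio was picked with the values in view and has no test. It was lower in CharmeKO in libraries of both kinds, rich in *Xist* or in Y-linked reads.

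**Figure D3:**
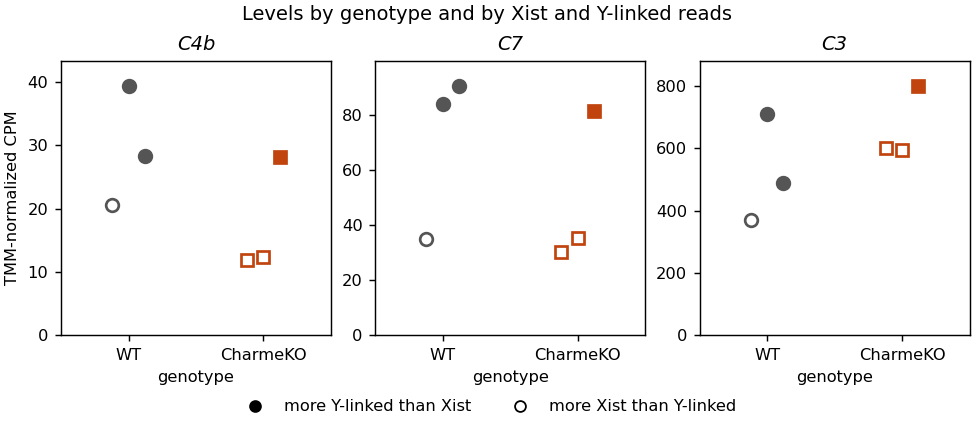
TMM-normalized CPM of *C4b*, *C7* and *C3* in each WT (grey circles) and CharmeKO (orange squares) library, filled where Y-linked reads exceed *Xist* reads and open where *Xist* exceeds them. For *C4b* and *C7* the filled symbols lie above the open symbols, while for *C3* they overlap.

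*Cfb* had 0, 4 and 0 counts in WT and 5, 3 and 0 in CharmeKO, at or near the 3 counts that a count of 0 allows, and no fold is given. The count cannot be read as the gene's level. In the annotation that gave exon lengths, 2246 of the 2825 exon bases of *Cfb* (79.5%) lie on the same strand within *Gm20547*, a gene model listed at 0 in all 6 libraries, and STAR's gene counting assigns a read that falls on both genes to neither.

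The inhibitors were the members with the least difference between the groups. *Serping1* encodes C1 inhibitor, the serpin that inactivates C1r, C1s and the MASPs. It measured 737, 1177 and 939.9 CPM in WT replicates 1 to 3 and 999, 926 and 1145 CPM in the CharmeKO libraries. WT replicate 1 was lowest and the other libraries of both groups interleaved. Between the groups *Serping1* had a log2 fold change of 0.11 (SE 0.17, 95% interval −0.27 to 0.49; edgeR, adjusted p = 0.850), and without WT replicate 1 it turned to −0.045. *Cd55*, whose product on the cell surface speeds the decay of C3 convertases, measured 116, 69.4 and 111 CPM in WT replicates 1 to 3 and 109.7, 97.3 and 89.7 CPM in the CharmeKO libraries. The CharmeKO libraries lay inside the WT range. Its log2 fold change was 0.01 (SE 0.18, 95% interval −0.38 to 0.39; edgeR, adjusted p = 0.994), and its sign changed with the normalization. The intervals leave room for changes of up to 0.49 for *Serping1* and 0.39 for *Cd55* on the log2 scale. The level of *C1ra* and *C1s1* together relative to *Serping1*, protease to inhibitor, was −1.94, −2.11 and −2.21 on the log2 scale in WT and −1.70, −1.82 and −1.98 in CharmeKO, and the groups overlapped between WT replicate 1 and CharmeKO replicate 3.

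Across the 6 libraries, the abundant members varied together. Pearson's r of log2(CPM + 1) was 0.974 between *C1ra* and *C1s1*, 0.951 between *C3* and *Serping1*, 0.892 between *C1s1* and *C3* and 0.812 between *C1s1* and *Serping1*. *C3*, *Serping1* and *C1s1* were lowest in WT replicate 1, and *C1ra* was lowest in WT replicate 3, with WT replicate 1 next. *Cd55* went the other way, at −0.786 with *Serping1* and −0.726 with *C3*, and was lowest in WT replicate 2, where *Serping1* was highest. *C4b* had an r of 0.229 with *C3*. Within the libraries rich in *Xist* (1 WT, 2 CharmeKO) and those rich in Y-linked reads (2 WT, 1 CharmeKO), the log2 ratio of the CharmeKO mean to the WT mean was 0.69 and 0.42 for *C3*, 0.63 and 0.35 for *C1ra*, 0.51 and 0.24 for *C1s1*, and 0.38 and 0.11 for *Serping1*. For *Masp2* it was 5.52 and 4.46. These 5 genes were thus higher in CharmeKO on average in libraries of both kinds, with too few libraries of each kind for a test. With the split as a term in the fit over all libraries, *C3* had a log2 fold change of 0.55 (edgeR, adjusted p = 0.250). For the correlations, the points are 6 libraries that share their normalization and differ in depth and genotype, so these values are descriptions.

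Among 8908 tested genes with a mean of at least 10 CPM, the gene most like *C3* over the 6 libraries was *Cebpd*, with r = 0.993. *Cebpd* encodes the transcription factor C/EBPδ and averaged 1011 ± 251 CPM in the WT libraries (SD, n = 3) and 1195 ± 158 CPM in the CharmeKO libraries (log2 fold change 0.24; edgeR, adjusted p = 0.631). The next for *C3* was *Usp4* (r = 0.990). *Serping1* was most like the matrix genes *Fbln1* (r = 0.990) and *Srpx* (r = 0.988). *C1ra* was most like *Tusc2* (r = 0.992) and *Hyal2* (r = 0.984), and *C1s1* was most like *Eya3* (r = 0.990) and *Acss1* (r = 0.983). *C4b* had the closest match, *Slc39a14*, which encodes a zinc and iron transporter (r = 0.997), and *Yipf3* (r = 0.996), with 113 genes above 0.95. *Cd55* was most like *Rab7b* (r = 0.987) and *Abi2* (r = 0.986), and *Masp1* most like *Miga2* (r = 0.986) and *Il2rg* (r = 0.983). The genes most like *Masp2*, *Poldip3* (r = 0.991) and *Rbp7* (r = 0.990), both rose in CharmeKO (log2 fold changes 0.92 and 2.10; edgeR, adjusted p = 0.00177 and 0.000361). Their positions relative to *Masp2* were not looked at beyond the 10 protein-coding genes on each side of it. With 6 points and 8908 genes searched, a high r was found for each of the 8 members.

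**Figure D4:**
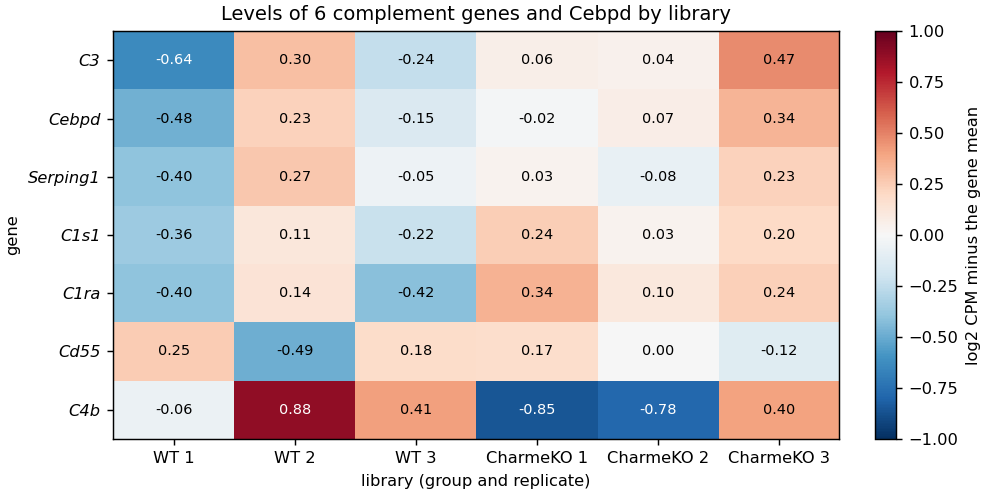
Level of 6 complement genes and *Cebpd* in each library, as log2 CPM minus the gene's mean over the 6 libraries (red above, blue below). *C3* and *Cebpd* share their profile, from −0.64 and −0.48 in WT replicate 1 to 0.47 and 0.34 in CharmeKO replicate 3, whereas *C4b* is lowest in CharmeKO replicates 1 and 2.

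The rest of the pathway was described with 45 other complement genes, of which 26 were tested. None passed the test (edgeR), beside 0.83% of all tested genes, and DESeq2 called 1, beside 2.5%. An unadjusted p under 0.05 (edgeR) was found for 5 of the 26, beside 12.8% of all tested genes. The log2 fold change was above 0 in 13 and below 0 in 13, with a median of 0.01. The 3 CharmeKO libraries all lay above WT for 3 genes and below for 1, beside 9.58% and 8.59% of all tested genes. Recognition molecules (7 of 11 tested) had a median log2 fold change of −0.44. The most abundant per kb were the pentraxin *Ptx3*, with a mean of 92.0 ± 18.6 CPM in the WT libraries (SD, n = 3) and 66.9 ± 20.7 CPM in the CharmeKO libraries (edgeR, adjusted p = 0.391), the collectin *Colec11*, at 32.5 ± 8.01 and 26.8 ± 7.09 CPM, and the scavenger receptor *Colec12*. *Colec12* averaged 79.2 ± 2.43 CPM in the WT libraries and 101.4 ± 5.59 CPM in the CharmeKO libraries without overlap (log2 fold change 0.36; edgeR, adjusted p = 0.180). *C1qa*, one of the C1q chains that macrophages make, averaged 1.25 ± 0.451 CPM in the WT libraries and 0.632 ± 0.283 CPM in the CharmeKO libraries, also without overlap (edgeR, adjusted p = 0.489). Per kb of exon *C1qa* averaged 0.905 ± 0.459 CPM (SD, n = 6), far below the proteases *C1ra* and *C1s1* that its product carries.

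Of the terminal components that form the membrane attack complex, 2 of 7 were tested and 3 had no count in any library. *C7* measured 34.8, 84.3 and 90.7 CPM in WT replicates 1 to 3 and 30.3, 35.3 and 81.7 CPM in the CharmeKO libraries (log2 fold change −0.50; edgeR, adjusted p = 0.639). Like *C4b*, it separated the libraries by sex-linked transcripts. Within the libraries rich in *Xist*, *C7* was at 34.8 CPM in WT and a mean of 32.8 CPM in CharmeKO, and within those rich in Y-linked reads at a mean of 87.5 CPM and at 81.7 CPM.

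The soluble and surface regulators (9 of 13 tested) had a median log2 fold change of 0.09. *Cr1l*, the rodent membrane regulator Crry, averaged 103.2 ± 8.31 CPM in the WT libraries and 128 ± 5.83 CPM in the CharmeKO libraries without overlap (log2 fold change 0.30; edgeR, adjusted p = 0.291). *Clu* was at 92.5 ± 1.89 and 94.0 ± 13.8 CPM, and *Vtn* at 49.0 ± 3.91 and 43.2 ± 9.07 CPM. Of the other proteases and components, *Cfp* averaged 5.82 ± 0.652 CPM in the WT libraries and 4.48 ± 1.26 CPM in the CharmeKO libraries. *C2*, the partner of C4 in its convertase, had 0 to 17 counts. It lies next to *Gm20547*, the gene model that overlaps *Cfb*, and its own overlap with that model was not checked. *Cfd*, which cuts factor B, had 12 counts in WT replicate 2 and 0 in the other libraries. *Cd55b*, the copy of *Cd55*, had at most 2 counts. The receptors were low, with *Itgb2* at 2.42 CPM in WT and 3.04 CPM in CharmeKO.

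**Figure D5:**
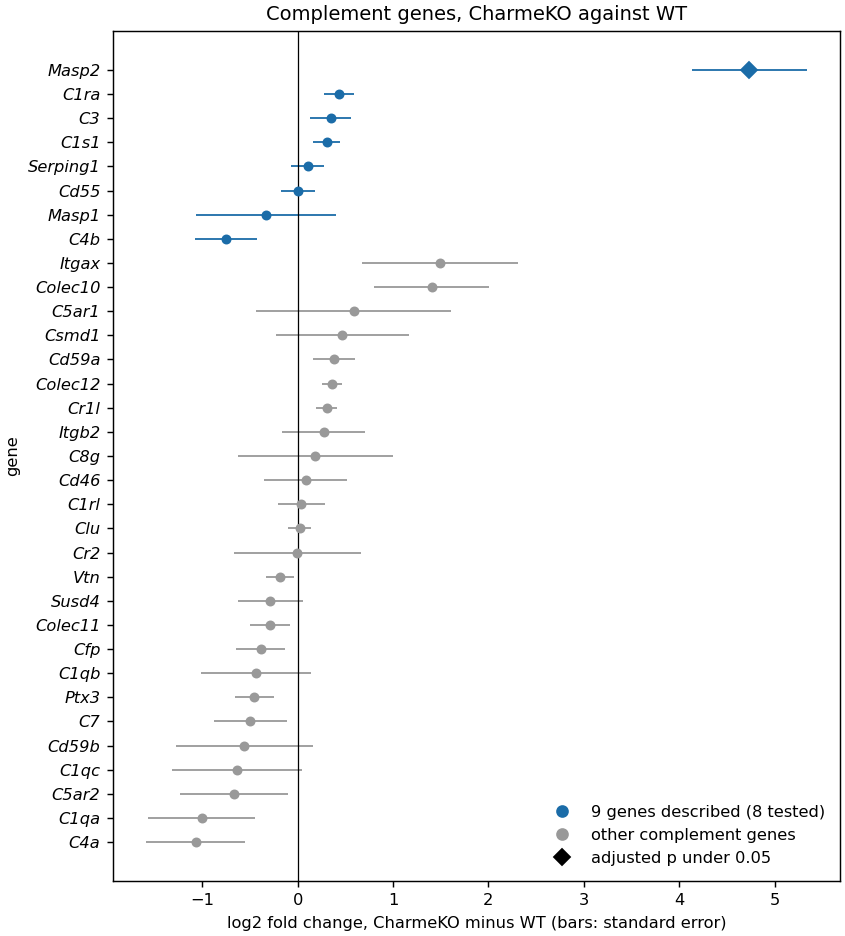
Log2 fold change (CharmeKO minus WT) with its standard error for the 8 tested members (blue) and the other tested complement genes (grey), with 1 gene not shown. The 1 diamond, *Masp2* at 4.73, marks an adjusted p under 0.05, and the other values lie between −1.07 for *C4a* and 1.5 for *Itgax*.

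Some markers of other cell types also differed between the groups. The 8 cardiomyocyte markers, all with a log2 fold change above 0 (median 0.62) and 6 of them without overlap, summed to 260 to 328 CPM in WT and 375 to 544 CPM in CharmeKO, and *Tnni3* and *Myh6* rose (edgeR, adjusted p = 0.0200 and 0.0292). The 8 epicardial and mesothelial markers, all with a log2 fold change below 0 (median −0.96), summed to 58.2 to 75.7 CPM in WT and 34.4 to 41.9 CPM in CharmeKO, and *Wt1* fell (edgeR, adjusted p = 0.0189). Of the 8 endothelial markers 3 (*Tek*, *Emcn* and *Kdr*) had each CharmeKO library above WT, and 5 had a log2 fold change above 0 (median 0.21). Of the 8 mural markers 3 (*Pdgfrb*, *Cspg4* and *Notch3*) had each below. The mural list had 4 log2 fold changes above 0 and 4 below (median −0.01). It summed to 2427 to 2783 CPM in WT and 2378 to 2790 CPM in CharmeKO. Over all tested genes, 9.58% had each CharmeKO library above WT and 8.59% each below. From either list 0 passed (edgeR, 2 of each with an unadjusted p under 0.05). For the 12 fibroblast markers the median was −0.05 on the log2 scale, and 0 passed (edgeR, 4 with an unadjusted p under 0.05). Over all tested genes, 12.8% had an unadjusted p under 0.05 (edgeR). Of 10 genes of the response to dissociation, 2 passed, beside 0.83% of all tested genes. These were the heat shock genes *Hspa1a* and *Hspa1b*, which lie among the 10 protein-coding genes on either side of *Cfb* on chromosome 17. They rose, with log2 fold changes of 1.30 and 1.59 (edgeR, adjusted p = 0.0116 and 0.0176). The list had 6 log2 fold changes above 0 and 4 below (median 0.10). It summed to 27581 to 39950 CPM in WT and 32490 to 35808 CPM in CharmeKO. None of the markers in these lists was at 0 in all 6 libraries, and their part in the complement values was not tested.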

How the data were processed

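Native CF libraries (3 WT, 3 CharmeKO) were analysed, with groups and replicate numbers from the labels. The authors aligned reads with STAR to GRCm39, counted them per gene of an Ensembl annotation with *Charme* added, and deposited raw "reverse" strand counts, without normalization or filter; the study tested them with DESeq2. Cultured CFs were not analysed here. Total counts were 9595701 to 42101393 per library, and a count of 0 allows up to 3 counts (0.0713 to 0.313 CPM, counting error only).

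Genes that reached 10 counts in 2 or more libraries were TMM-normalized and tested with edgeR 4.0.16 (R 4.3.3, quasi-likelihood, two-sided, Benjamini-Hochberg threshold 0.05). Standard errors came from the F statistic. The biological coefficient of variation was 20.2%, and no library duplicated another. The script was tested on simulated data. The methods give 3 WT and CharmeKO mice for the native isolation, and p-values measure the spread between the libraries. Alternatives were DESeq2 1.42.0, other normalizations and filters, a replicate block, a term for *Xist* and Y-linked reads, and each library left out.

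Exon lengths, gene order and overlaps came from GENCODE M21 (GRCm38), another build than the counts, promoters from RefSeq (GRCm38.p6) and transcript identities from blastn 2.17.0. Members and lists were chosen with earlier results of these data known. Members and copies were always named, and list genes where called, not overlapping between groups or among the 3 highest per kb. Other genes, such as *Cfp*, *C2*, *Cfd*, *Itgb2* and the neighbours of *Masp2*, were picked after their values were seen. For likeness, the 2 genes with the highest r were named. Some genes that these rules would name are not reported here.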

Additional observations from a re-analysis of the deposited data

How the results depend on the processing

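The number of genes called was 131. It was 394 in DESeq2, 699 with no gene filter, 302 with the replicate block and 61 to 349 with single libraries left out, where WT replicate 2 gave 349 and CharmeKO replicate 3 gave 189. Complement members called (1) numbered 0 under the filter of 10 counts in 5 libraries, 3 with no gene filter (*Masp2*, *C1ra* and *C4b*) and 1 to 2 with libraries left out. Other complement genes called (0) numbered 1 in DESeq2, 3 with no gene filter, among them *Ptx3* and *C7*, and 0 to 1 with libraries left out. With no gene filter, *C1ra* (log2 fold change 0.44, adjusted p = 0.0460) and *C4b* (−0.74, adjusted p = 0.000275) passed in edgeR. The cause was not tested. With libraries left out, the log2 fold change ranged from 0.34 to 0.64 for *C1ra*, 0.21 to 0.45 for *C1s1*, 0.15 to 0.63 for *C3*, −1.28 to −0.46 for *C4b*, −0.74 to 0.65 for *Masp1*, −0.045 to 0.29 for *Serping1* and −0.20 to 0.14 for *Cd55*. *Cd55* also turned to −0.0030 in DESeq2, −0.0025 with DESeq2 size factors and −0.080 with the split by *Xist* and Y-linked reads as a term. *Masp2* ranged from 4.27 to 5.12 over its 13 alternatives, with adjusted p up to 0.0205. The replicate block changed no member's call (*Masp2* 4.68, adjusted p = 0.00387). Deviations of same-numbered libraries correlated at 0.247, 0.0632 and 0.188. Each library correlated best with its own number, a hint from the data only, and the numbers were not taken as pairs. Depth limits *Masp1*, *Cfb* and the WT level of *Masp2*.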

Other observations

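Genes that sense or answer the cytokines known to raise complement in stromal cells were measured as lists. The lists held 15 genes for interferon and 16 for IL-1, TNF and IL-6. Both include receptor genes, such as *Ifngr1* and *Il1r1*, so their medians and sums are not of induced genes alone. Of the interferon list 15 were tested and 0 passed (edgeR, 1 with an unadjusted p under 0.05), with a median log2 fold change of 0.02 and a summed level of 1626 to 2011 CPM in WT and 1744 to 1884 CPM in CharmeKO. *Isg15*, a ubiquitin-like protein gene, had each CharmeKO library above WT (log2 fold change 0.29; edgeR, adjusted p = 0.316) and *Stat2* each below (−0.20; adjusted p = 0.466). *Irf1* averaged 662 ± 105.6 CPM in the WT libraries (SD, n = 3) and 641 ± 61.6 CPM in the CharmeKO libraries. Of the other list 15 were tested and 0 passed (edgeR, 2 with an unadjusted p under 0.05), with a median of −0.14. *Stat3* and *Rela*, transcription factor genes of the IL-6 and NF-kB pathways, had each CharmeKO library below WT (log2 fold changes −0.25 and −0.40; edgeR, adjusted p = 0.426 and 0.274). Of all tested genes, 9.58% had each CharmeKO library above WT and 8.59% each below. The share with an unadjusted p under 0.05 (edgeR) was 12.8%. *Socs3*, a feedback inhibitor of STAT3, averaged 2004 ± 439 CPM in the WT libraries and 1857 ± 172 CPM in the CharmeKO libraries. Per kb of exon, *Socs3* averaged 668 ± 107 CPM over the 6 libraries (SD, n = 6), beside 425 ± 69.2 CPM for *Serping1*.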
